A study of Mus musculus with 3 samples.

Results

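Cells that carried Rgs5 together with Notch3, the pair of genes best known from the mural cells of small blood vessels, made up a small part of the mCherry-sorted cells of the mouse molar. They were chosen cell by cell from their own counts of unique molecular identifiers (UMIs, each standing for 1 captured transcript). A kept cell had at least 500 detected genes and at most 20% mitochondrial UMIs. A member had at least 3 UMIs of Rgs5, at least 1 of Notch3, at least 1 in the sum of Kcnj8, Ebf1 and Gucy1a3, and none of Ptprc, Epcam, Pecam1 or Cdh5, which mark immune, epithelial and endothelial cells. The rule found 272 members among 24328 kept cells. Since measured values chose the members, what separates them from the other cells in these 9 genes is given as a description, and no comparison here carries a test.

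The study followed cells expressing parathyroid hormone-related protein (PTHrP, gene Pthlh) on the growing tooth root with a Pthrp-mCherry knock-in reporter, a red fluorescent protein placed at the Pthlh locus. Mandibular molars of knock-in mice were pooled at postnatal day 15 (P15), at postnatal day 25 (P25) and at 8 weeks (8W), dissociated, sorted for mCherry and captured by 10x Genomics 3′ single-cell RNA sequencing. All 3 libraries carried the same reporter allele, the labels name no treatment, no library came from reporter-free animals, and each time point was 1 library, so that time point and library cannot be told apart. The labels name all sorted cells PTHrP-mCherry+ cementoblasts and precursors, that is, the cells that lay down cementum on the root and their forerunners.

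Pericytes and vascular smooth muscle cells, together called mural cells, wrap capillaries and larger vessels and share a basement membrane with the endothelium. They are recruited through the platelet-derived growth factor receptor Pdgfrb, and Notch3, a receptor switched on by ligands of the neighbouring endothelial cell, is needed for their upkeep. Rgs5, a regulator of G-protein signalling, is among their most used markers. In dental tissue and periodontal ligament, cells around vessels are also known as a niche that can hold progenitors.

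The deposited matrices held 12926, 8971 and 5192 cell barcodes at P15, P25 and 8W, of which 11412, 8325 and 4591 were kept. Members numbered 229 at P15 (2.01% of kept cells, exact 95% Clopper-Pearson interval 1.76 to 2.28). At P25 there were 35 (0.420%, 0.293 to 0.584), and at 8W 8 (0.174%, 0.0753 to 0.343). The P15 interval lay above the other 2, which overlapped between 0.293 and 0.343%. They cover counting error only, without the spread between animals or captures. Of the kept cells in which the 4 excluded genes were all at 0, members were 2.58%, 0.490% and 0.182%. Members had a median of 10900, 18209 and 12486 UMIs and the other kept cells 15338, 16573 and 9368, so members were the shallower class at P15 and the deeper one at P25 and 8W. Summed over members, 3201120, 780121 and 108814 UMIs fell on the 21446 genes shared by the 3 gene references. A gene with no UMI could then still have a level of up to 0.937, 3.85 and 27.6 CPM (UMIs of the gene per 1000000 UMIs of the class) in the respective libraries, the level of 3 counts. Levels at 8W, from 8 cells, are for that reason known only coarsely. Between libraries 26 (P15 and P25), 16 (P15 and 8W) and 13 (P25 and 8W) deposited barcodes were the same, 2 of them P15 members, and no barcode was a member in more than 1 library.

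Rgs5 itself set the time points apart. Its count per member had a median of 64 UMIs at P15, 5 at P25 and 3 at 8W, the smallest count the rule admits. The highest count was 437 at P15, 177 at P25 and 12 at 8W. At P15, 95 members had 80 or more Rgs5 UMIs, 66 had 20 to 79 and 68 had 3 to 19. At P25 these 3 ranges held 2, 4 and 29 members. At 8W all 8 members lay in the lowest range. Immune cells (at least 2 Ptprc UMIs, no Epcam or Pecam1), which should lack the gene, were taken as a background. Free RNA in the droplets and cell pairs were not told apart in it. After each cell was thinned to 3000 UMIs, 3.16% of P15 immune cells still had an Rgs5 UMI, against 89.7% of 224 members deep enough to be thinned. Before thinning it was 8.25% of immune cells, at a median of 10671 UMIs against 10900 in members.

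**Figure D1:**
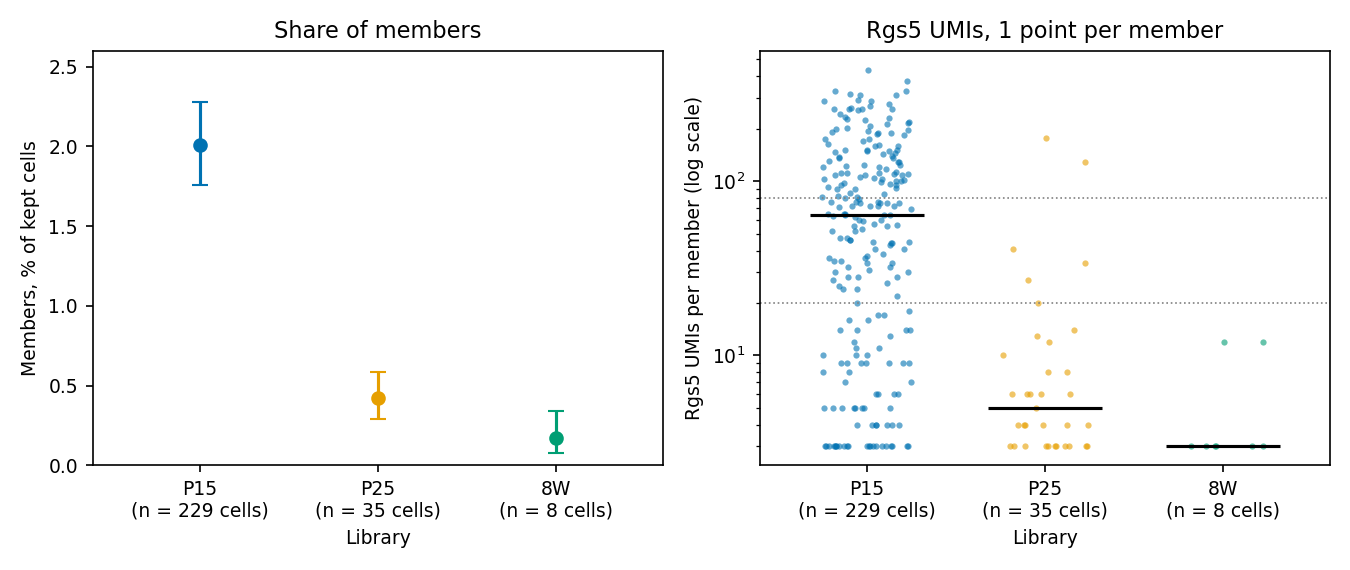
Left, members as a percentage of kept cells in each library, with exact 95% Clopper-Pearson intervals. Right, Rgs5 UMIs of every member on a log scale, 1 point per cell, with the median as a black line and dotted lines at 20 and 80 UMIs. The median is 64 at P15, 5 at P25 and 3 at 8W, and no 8W member passes 12.

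Most cells with Rgs5 did not become members. At least 1 Rgs5 UMI was present in 1682, 737 and 669 kept cells, and at least 3 in 470, 173 and 180. Of the cells with at least 3, 241, 138 and 172 were left out, and 190, 126 and 170 of these had no Notch3 UMI. A UMI of an excluded gene removed 50, 11 and 2 cells. Among the cells left out, 24, 2 and 1 had at least 20 Rgs5 UMIs. The third requirement removed 1 cell at P15, 1 at P25 and none at 8W. It was met mostly through Ebf1, a transcription factor of perivascular and marrow stromal cells, with a UMI in 224, 34 and 8 members. Gucy1a3, a subunit of the nitric oxide receptor guanylate cyclase, was present in 216, 21 and 4. Kcnj8, the pore of the vascular ATP-sensitive potassium channel, was present in 188 (82.1%), 14 (40%) and 2 (25%).

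Just inside the threshold, the 22 P15 members with exactly 3 Rgs5 UMIs had 555 CPM of Ebf1, 1171 of Mgp and 1588 of Cxcl12. The 28 cells just outside, with 2 Rgs5 UMIs and all else met, had 306, 2500 and 194. The 29 P15 members with a single Notch3 UMI had 385 CPM of Ebf1 and 83.1 of Abcc9, and the 134 cells that met all but Notch3 had 131 and 25.1. At P25, 11 members lay just inside and 29 cells just outside the Rgs5 limit. At 8W the numbers were 6 and 9, so the size of the class at 8W turns on single UMIs.

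Among the markers of mural cells, Higd1b, Des, Gja4, Art3 and Vtn were present in P15 members with much Rgs5. They were at or near 0 in P15 members with little Rgs5, and had few or no UMIs in members of the later times. The same held for Actg2 and Synpo2 of smooth muscle, but not for Pdgfrb and Abcc9. Of 15 pericyte genes listed for the check, 14 lay outside the rule, and none of these 14 was at 0 in P15 members. At P25 2 of them and at 8W 5 were at 0. Higd1b, a mitochondrial protein that is a pericyte marker in many tissues, was at 213 CPM in P15 members (exact 95% Poisson interval 197 to 229, counting error only) and at 0.949 in other kept cells. It was at 5.13 CPM at P25, with all 4 UMIs in 1 cell, and had no UMI at 8W. Des, Gja4, Art3 and Vtn were at 50, 60.9, 31.2 and 19.4 CPM at P15 and had no UMI in any member at P25 or 8W. At 8W a level of up to 27.6 CPM could go unseen, which is above the P15 level of Vtn and near that of Art3. Mcam, the adhesion molecule CD146 of mural cells, had 118 CPM at P15, 2.56 at P25 and none at 8W. In the 68 P15 members with 3 to 19 Rgs5 UMIs, Higd1b was at 4.31 CPM, Des and Vtn at 1.72 each, Art3 at 3.45 and Gja4 at 0. Mcam, Pdgfrb and Abcc9 were not near 0 in these 68 cells, at 29.3, 337 and 144 CPM against 5.91, 77.6 and 19.2 in other kept cells. Members are therefore called by the rule, as cells with Rgs5 and Notch3, and are given no cell type name.

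The position of members among all cells of their library was also compared. Each library was reduced to 30 principal components of 2000 variable genes, without the 9 genes of the rule, and the 20 nearest neighbours of every member were counted. At P15, 66.4% of these neighbours were themselves members, where members were 2.01% of the library. The value was 32.6% for members with 3 to 19 Rgs5 UMIs, 70.6% for those with 20 to 79 and 87.7% for those with 80 or more. At P25 it was 4.43%, where members were 0.420% of the library. At 8W none of the 160 neighbours was a member, but with 8 members at most 7 of the 20 neighbours of a member (35%) could be, and the value cannot be set beside that of P15. P15 members with much Rgs5 lay together, and P25 members lay mostly among other cells.

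**Figure D2:**
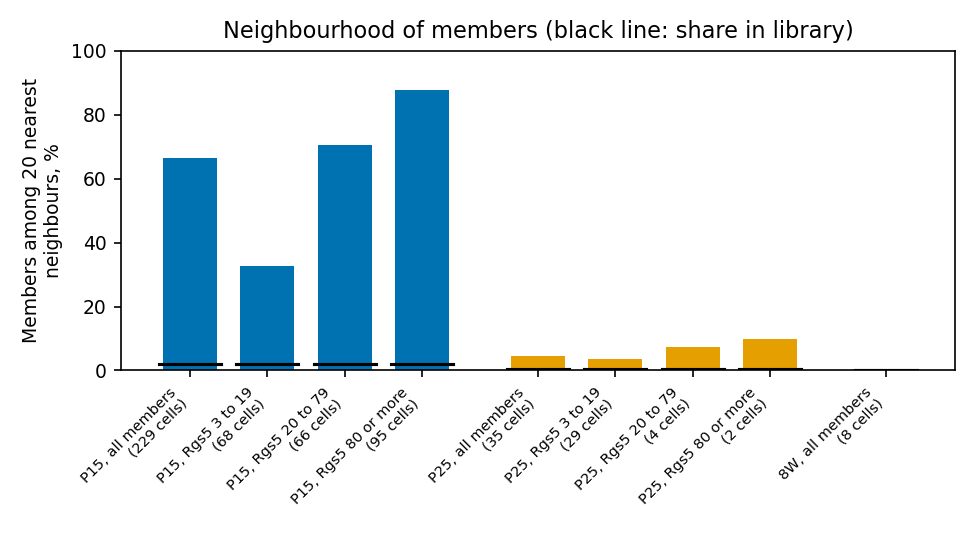
Percentage of members among the 20 nearest neighbours of members, by library and by the number of Rgs5 UMIs, computed without the genes of the rule. Black lines mark the share of members in the library. P15 reaches 87.7% at 80 or more Rgs5 UMIs, all P25 bars stay at or below 10%, and the 8W bar is at 0, where 35% is the most that 8 members allow.

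Across the 3 libraries, few genes set members apart throughout. Genes with at least 50 CPM in members or in other kept cells in every library were compared as log2 of the ratio of CPM, with 10 CPM added to both levels, and a gene was counted where it was at least 2-fold higher or lower in all 3. Of 2785 genes outside the rule, 20 (0.718%) were higher in members and 28 (1.01%) lower. The higher count depended on the settings. It was 31 with at least 5 Rgs5 UMIs (11 of them among the 20) and 37 with a Kcnj8 UMI required (13 of them among the 20). Without P15 it was 60 and without 8W 69, and the lower counts were then 49 and 52. Library by library, 258 of 3523 genes (7.32%) were higher and 141 (4%) lower at P15, 178 of 3276 (5.43%) and 125 (3.82%) at P25, and 279 of 3718 (7.5%) and 242 (6.51%) at 8W. All these counts come from the contrast that chose the members. The median log2 ratio over the genes compared in each library was 0.06, 0.03 and 0.08.

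Abcc9, which encodes the sulfonylurea receptor SUR2 that pairs with Kcnj8 in the vascular potassium channel, led the genes that were higher in all 3 libraries. Its level was 423 CPM in members and 19.2 in other kept cells at P15, 96.1 and 16.5 at P25, and 82.7 and 24.4 at 8W, a mean log2 ratio of 2.44 ± 1.29 (SD over 3 libraries). At 8W 9 UMIs carried the value, with 56% of them in 1 cell. Abcc9 (chr6:142587862-142702315, minus strand, GRCm38) and Kcnj8 (chr6:142564837-142571614, minus strand) are neighbours on chromosome 6. At P15 188 members had a Kcnj8 UMI, 200 an Abcc9 UMI and 171 both.

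Mgp, matrix Gla protein, a secreted inhibitor of calcification made by vascular and cartilage cells, was the second. It reached 7775 CPM in P15 members against 413 in other cells, 732 against 198 at P25 and 910 against 450 at 8W (mean 2.35 ± 1.66 on the log2 scale, n = 3 libraries). The P15 value was broadly shared, with a UMI in 213 of 229 members and a median of 7139 CPM per cell. The 8W value was not, since 1 cell held 90% of its 99 UMIs. Its 8W log2 ratio of 1.00 lay at the limit, and with TMM factors, which rescale each summed library, it was 0.75. Under that scaling 13 of the 20 genes passed 2-fold in all 3 libraries, and Mgp, Uaca, Nr2f2, Gab1, Gpc6, Nfia and Kazn did not, the last with log2 ratios of 1.67, 1.80 and 1.60 that passed the fold but not the 50 CPM minimum.

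The next genes were Ifitm1, an interferon-induced membrane protein (613, 250 and 110 CPM in members, 61.3, 40 and 37.5 in other cells), and Rgs4, a relative of Rgs5 (98.4, 114 and 91.9 CPM against 7.22, 16.2 and 17.2). Rgs4 was at 2.27 ± 0.37 on the log2 scale, and its plain CPM ratio was 13.6, 7.03 and 5.35. Mylk, the kinase that starts smooth muscle contraction, had 370, 135 and 551 CPM in members and 55.6, 33.6 and 102 in other cells. Ccdc80, a matrix protein, had 301, 326 and 414 CPM against 45.1, 79.7 and 117. The gene with the least spread was Kazn, a protein of cell junctions and cytoskeleton, with 51.9, 56.4 and 55.1 CPM against 8.74, 8.42 and 8.82 (1.79 ± 0.06).

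Lepr, the leptin receptor of perivascular marrow stroma, and Cxcl12, the chemokine made by the same stroma, were both in this group. Lepr had 78.1, 142 and 119 CPM in members and 16.8, 19.9 and 32.9 in other cells. Cxcl12 had 628, 332 and 542 CPM against 114, 110 and 196. The P15 value of Cxcl12 was uneven, with a median of 110 CPM per cell and a highest cell of 19998, and the members with 80 or more Rgs5 UMIs were at 106 CPM, under the other cells. Mmp13, a collagenase, had 658, 1582 and 561 CPM against 254, 273 and 152. With P15 members of at least 20 Rgs5 UMIs alone, Mmp13 was at 231 CPM, on the other side of the 254 CPM of the other cells. The remaining 5 of the 15 leading genes were Ddit4l, Col8a1, Uaca, Nr2f2 and Isg15, with mean log2 ratios between 1.58 and 1.76. Nr2f2, a transcription factor of veins and mesenchyme, had 312, 123 and 138 CPM in members against 53.9, 41.1 and 56.4.

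The genes that were lower in all 3 libraries were led by genes of the cell types that the rule excludes. S100a9, a neutrophil gene, had 91.5 and 5.13 CPM in P15 and P25 members and no UMI at 8W, against 3847, 218 and 65.0 in other kept cells, so that the 8W level was at least 2.36-fold lower. The keratin genes Krt14, Krt5, Krt17 and Krt6a and the epithelial genes Lgals7, Sfn, Ly6d and Fabp5 had mean log2 ratios between -3.97 and -3.25. Lgals7, Sfn, Ly6d and Krt17 had no UMI in 8W members, where they were at least 8.07-, 3.42-, 3.23- and 2.22-fold lower, and their means depend on the 10 CPM added. At P15 59% of the Krt14 UMIs of members were in 1 cell. The 1 gene of the 10 from the root itself was Ibsp, bone sialoprotein of the cementoblast matrix, with 637, 602 and 82.7 CPM in members against 2924, 4515 and 7508. Against only those other cells in which the 4 excluded genes were at 0, 18 genes were higher and 19 lower, and 18 and 14 of these were among the 20 and 28.

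Most of the pericyte genes were above the other cells at P15. Of 10 genes at 50 CPM or more, 9 were at least 2-fold higher and none lower, with a median log2 ratio of 2.76. At P25 it was 4 of 5, with a median of 1.63, and at 8W 2 of 6, with a median of 0.68. Ndufa4l2, a subunit of the respiratory chain that is induced by low oxygen, had 459 CPM against 17.1 at P15, 38.5 against 31.9 at P25 and 9.19 against 20.5 at 8W. Pdgfrb, the receptor through which pericytes are recruited, had 630, 300 and 202 CPM in members and 77.6, 89.8 and 131 in other cells, so that the levels of members and other cells lay closer at each later time. Cox4i2, a cytochrome oxidase subunit of pericytes and smooth muscle, had 316, 214 and 248 CPM against 83.7, 83.6 and 142. Postn, periostin, was the most abundant gene of the list and did not follow it, with 882, 1322 and 1231 CPM in members against 925, 2046 and 2005. Only Abcc9 and Rgs4 of the 5 pericyte genes measured in all libraries passed 2-fold in each.

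Contractile genes of vascular smooth muscle were higher at P15 in 7 of 9 genes (median 1.81) and in 1 of 7 and 2 of 7 at P25 and 8W (medians 0.21 and 0.23). Acta2, smooth muscle actin, had 876 CPM at P15 against 125, 60.2 against 40.8 at P25 and 239 against 107 at 8W, where 1 cell held 69% of the UMIs. Myh11, smooth muscle myosin, had 83.1 CPM in P15 members and 1.42 in other cells. It was at 3.85 and 9.19 CPM at P25 and 8W, in each case in 1 cell. Tagln, a calponin-like protein of smooth muscle, had 440, 82.0 and 147 CPM against 118, 82.8 and 125. Cnn1 and Pln were at or near 0 in members and in other cells of every library. Of the 16 genes, 4 at P25 and 7 at 8W had no UMI in members.

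**Figure D3:**
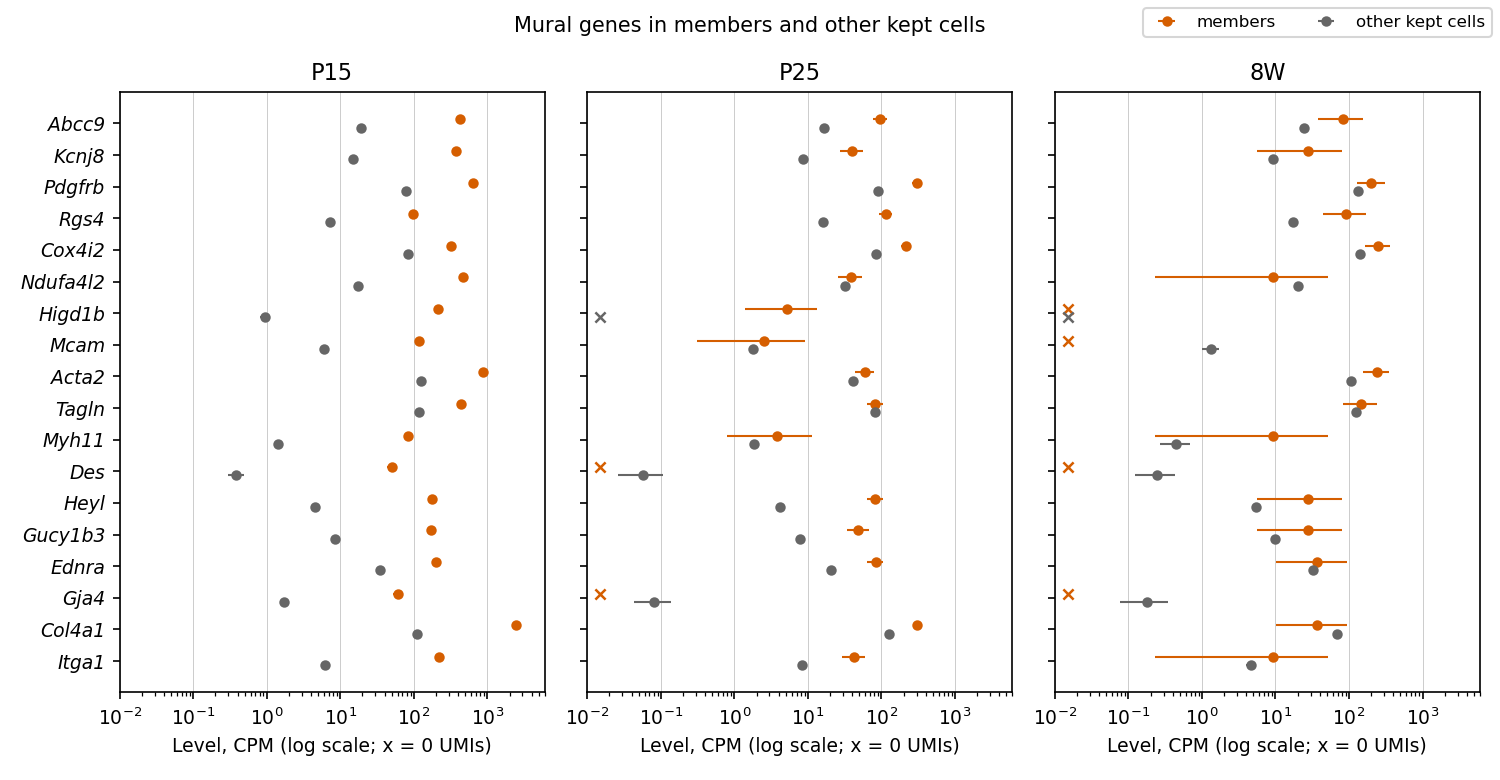
Levels in CPM (log scale) of 18 genes of pericytes, smooth muscle, Notch response and basement membrane in members (orange) and other kept cells (grey), 1 panel per library, with exact 95% Poisson intervals and crosses for 0 UMIs. At P15 every orange point lies to the right of its grey point, while Higd1b, Mcam, Des and Gja4 are at or near 0 in members at P25 and 8W. Kcnj8 is a gene of the rule.

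Genes that set vessel tone were higher in 8 of 10 at P15 (median 2.27), in 3 of 3 at P25 (1.39) and in none of 2 at 8W (0.38). Gucy1b3, the partner of Gucy1a3 in the nitric oxide receptor, had 172, 48.7 and 27.6 CPM in members and 8.34, 7.82 and 9.90 in other cells. Ednra, the endothelin receptor of smooth muscle, had 199, 83.3 and 36.8 CPM against 35.0, 20.3 and 32.4. Gjc1, a connexin, had 247 CPM against 41.2 at P15, 39.7 against 25.5 at P25 and 18.4 against 37.1 at 8W. The sphingosine phosphate receptors S1pr1 and S1pr3 were highest at P25, with 78.1 and 174 CPM at P15, 129 and 204 at P25 and 91.9 and 156 at 8W. In the RGS family, 2 of 5 measured genes outside the rule were higher at P15, and 1 of 4 and 1 of 3 later. Besides Rgs4, this was Rgs16 at P15, with 136 CPM against 9.07.

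Notch3, through which the members were chosen, was at 462, 151 and 110 CPM in members. Among 17 other Notch genes, 5 of 6 measured ones were higher at P15 (median log2 ratio 1.33), 5 of 7 at P25 (1.12) and none of 4 at 8W (0.39). Heyl, a transcriptional repressor that Notch3 signalling switches on in mural cells, had 178 CPM in members and 4.55 in other cells at P15, and 82.0 against 4.14 at P25. At 8W it was at 27.6 against 5.52, from 3 UMIs in 1 cell. Hes1, a general Notch target, had 264, 288 and 211 CPM against 105, 107 and 134. Hey1 had 50.9, 70.5 and 55.1 CPM against 18.5, 17.3 and 24.2. The ligand Jag1 had 69 and 67.9 CPM at P15 and P25 against 19.7 and 32.2, but 9.19 against 31.1 at 8W, from 1 UMI. Rbpj, the DNA-binding partner of activated Notch, was alike in both classes, with 81.2, 53.8 and 82.7 CPM against 79.6, 54.3 and 89.3.

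The 10 leading genes were searched for the core letters of the RBPJ binding site, TGGGAA on either strand, in RefSeq promoters of GRCm38.p6 (250 bases before to 50 after the start). The letters were in 25.6% of all 32851 promoters, and 28.3% of 27025 genes had at least 1 promoter with them. Among the leading genes, 8 were matched to promoters and 6 had the letters. The lists gave 5 of 11 matched pericyte genes, 4 of 13 smooth muscle genes and 4 of 14 Notch genes. Rgs5 had none in its 1 promoter. The windows before the start of 5 leading genes are printed 5′ to 3′ on the strand of the gene, with the matched letters in capitals, because these genes were higher in every library. TTCCCA is TGGGAA read on the opposite strand. The windows lie at chr6:142702478-142702507 (Abcc9, minus strand), chr7:140967933-140967962 (Ifitm1, plus), chr4:142239600-142239629 (Kazn, minus), chr6:117168353-117168382 (Cxcl12, plus) and chr4:101717239-101717268 (Lepr, plus), and the match begins 221, 131, 216, 170 and 156 bases before the start. A match of 6 letters is a description of the sequence, not a binding site.
Abcc9: ggtggtcctgaaTGGGAAtggccggagtga
Ifitm1: agtcacctctccTTCCCAgtggagggggtg
Kazn: acctatctacctTTCCCAtccagagtttct
Cxcl12: caagttggggacTGGGAAgatcaaaggtct
Lepr: tcctggttctctTTCCCActtggcactttc

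The CArG box, the site of serum response factor in contractile genes, was in a promoter of 1.81% of all genes. It was found in 1 of 13 matched smooth muscle genes, Myl9 (a myosin light chain, 523, 124 and 248 CPM in members against 172, 102 and 209), in 1 of 14 matched Notch genes, Hes5, and in no matched pericyte gene or leading gene. The Myl9 window is shown with the box in capitals. It lies at chr2:156775293-156775322 on the plus strand, and the box begins 161 bases before the start.
Myl9: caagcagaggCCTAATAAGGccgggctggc

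Growth factors and receptors of the vessel wall were mixed. Of 21 genes of the PDGF, angiopoietin and VEGF families, 3 of 8 measured ones were higher at P15, with 4 of 10 and 2 of 10 at the later times, and none was 2-fold lower. Nrp1, a co-receptor for VEGF, had 442, 103 and 91.9 CPM against 45, 24.3 and 61.3. Pdgfa, a ligand, had 166 CPM against 67.5 at P15, and 33.3 and 27.6 against 59.0 and 51.6 later. Angpt1, the mural ligand of the endothelial receptor Tek, had the opposite order, with 64.7, 97.4 and 312 CPM against 44.5, 30 and 64.1. Angpt4, another ligand of Tek, had 23.7, 169 and 423 CPM in members and 45.5, 86.1 and 155 in other cells.

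Basement membrane genes were higher in 7 of 13 genes at P15 (median 1.2), in 2 of 11 at P25, where 1 was lower, and in none of 11 at 8W, where 1 was lower. Col4a1 and Col4a2, the chains of the main collagen IV network, lie head to head (chr8:11198423-11312826 on the minus strand and chr8:11312805-11449287 on the plus strand). Col4a1 had 2418 CPM at P15 (2364 to 2472), 306 at P25 (269 to 348) and 36.8 at 8W (10.0 to 94.1), against 109, 127 and 69.2 in other cells. Col4a2 had 1254, 169 and 101 CPM against 76.0, 90.8 and 54.1. The integrins Itga1 and Itga7, receptors for collagen and laminin, had 221 and 48.4 CPM at P15 against 6.12 and 0.336. The laminin chains Lama4, Lamb2 and Lamc1 had 166, 85.9 and 175 CPM at P15 against 48.7, 31.9 and 59.2. Sparc, the most abundant gene of the list, did not follow, with 6330, 15314 and 12563 CPM against 9807, 17506 and 12752.

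Of the perivascular stroma genes outside the rule, 8 of 9 measured genes were higher at P15 (median 2.37), 5 of 6 at P25 (1.93) and 5 of 6 at 8W (1.51), where 1 was lower. The genes measured differed between the libraries, and of the 3 measured in all of them only Lepr and Cxcl12 were higher in each. At 8W the higher genes were Lepr, Cxcl12, Foxc1, Foxc2 and Grem1, and the lower gene was Tbx2, with 9.19 CPM against 79.7. Foxc2, a forkhead gene of mesenchyme, had 29.7, 46.1 and 73.5 CPM against 5.26, 10.6 and 11.3. Foxs1, a forkhead gene of pericytes, had 91.5, 50 and 18.4 CPM against 4.10, 5.01 and 6.87. Kitl, stem cell factor, had 308 and 142 CPM at P15 and P25 against 30.6 and 15.5. At 8W it was at 9.19 against 23.5, both under the 27.6 CPM that 3 counts stand for in members. Grem1, a BMP antagonist, had 30.6 CPM at P15 against 29.9 and 505 at 8W against 37.7, with 96% of its UMIs in 1 cell. Adipoq, adiponectin, was at 54.0 CPM at P15, with 31% of the UMIs in 1 cell, and had no UMI at P25 or 8W. Tbx18, a pericyte transcription factor, was low but above the other cells at P15, with 3.12 CPM against 0.237. It reached 7.53 CPM in P15 members with 80 or more Rgs5 UMIs and had no UMI in members at P25 or 8W. Tcf21 had no UMI in members or other cells of any library.

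Inflammatory mediators were higher in 9 of 12 genes at P15, where 2 were lower, in 5 of 10 at P25 and in 1 of 10 at 8W, where 5 were lower. The medians were 2.26, 1.12 and -0.99, and the last becomes -0.49 with the 4 genes at 0 set to the level of 3 counts. Ptx3, pentraxin 3, had 118, 74.3 and 18.4 CPM in members against 13, 5.55 and 8.35. At P25 1 cell held 52% of its UMIs. The chemokine Cxcl1 had 454, 370 and 184 CPM against 71.2, 115 and 186. Ccl2, the monocyte chemokine, had 292 and 71.8 CPM at P15 and P25 against 51.7 and 33.3 and no UMI at 8W, where the other cells had 60.3. Saa3, at 233 CPM in P15 members, came to 95% from 1 cell.

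Of the mineral genes, 4 of 6 were lower at P15 and at P25 (medians -1.26 and -1.11) and 3 of 7 at 8W (median 0.01), and 1 gene, Mgp, was higher in each. Spp1, osteopontin, had 186, 146 and 82.7 CPM against 455, 959 and 1385. Ank, a pyrophosphate transporter that checks mineral growth, had 39.7, 53.8 and 27.6 CPM against 109, 127 and 175. Bglap, osteocalcin, had 246, 1159 and 5532 CPM against 888, 2537 and 4266, with 56%, 81% and 91% of its UMIs in 1 cell. Bglap and its near-identical copies Bglap2 and Bglap3 may share reads, and their levels are uncertain for that reason. Matrix fibroblast genes lay on both sides of the other cells, with 2 of 15 higher and 2 lower at P15, 4 and 2 of 15 at P25, and 1 and 4 of 16 at 8W (medians -0.07, -0.10 and -0.34). Fbn1, fibrillin 1 of elastic microfibrils, had 594, 450 and 267 CPM against 114, 132 and 233.

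The study's marker lists of its tooth-root clusters were also counted. They were chosen on these samples and are not independent evidence. Periapical markers were higher in 7 of 11 genes at P15, in 5 of the 12 measured at P25, where 1 was lower, and in 1 of the 12 measured at 8W, where 2 were lower (medians 1.90, 0.60 and -0.06). At P15 these were Mgp, Col4a1, Nrp1, Cygb, Serpine2, Prrx1 and Col18a1. Of these, Mgp, Nrp1, Cygb and Prrx1 had log2 ratios of 4.20, 3.04, 3.17 and 1.90. Together with Ebf1 of the rule, they are the study's key markers of a single periapical cluster. Hand2, Nts, Alx1, Tnn and Csrp2 are those of another, and none of them was at least 2-fold higher at P15. Hand2 and Nts, the genes by which periapical cells were gated here, had 7.50 and 37.5 CPM in P15 members against 11.9 and 61.8, and 7, 5 and 2 members had a UMI of both. Cementoblast precursor markers were higher in 2 of 15 genes and lower in 5 at P15 (median -0.63), and higher in 6 and 4 of 15 with none lower at P25 and 8W (medians 0.49 and 0.54). Igf1, insulin-like growth factor 1, had 1254, 1591 and 1388 CPM in members against 513, 443 and 544. Wif1, a Wnt inhibitor, had 819 CPM at P15 against 2391 and 3026 and 3501 at P25 and 8W against 3407 and 5157. Cementoblast markers were never higher, and were lower in 4 of 5, 4 of 6 and 5 of 7 genes.

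The members also differed among themselves by the amount of Rgs5. Between the P15 members with 80 or more and those with 3 to 19 Rgs5 UMIs, 242 of 3733 genes (6.48%) were at least 2-fold higher and 207 (5.55%) lower, with a median log2 ratio of 0.07. The ranges were set on Rgs5 in the same cells, so these counts too are a description. The median depth was 14738, 9720 and 10560 UMIs in members with 3 to 19, 20 to 79 and 80 or more, so that the range with the least Rgs5 had the highest median depth. Pericyte genes were higher in 10 of 11 (median 2.10), smooth muscle genes in 8 of 12 (1.43), and genes of vessel tone in 8 of 10 (1.85, with S1pr1 lower).

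Higd1b had 4.31 CPM in members with 3 to 19 Rgs5 UMIs, and 70.9 and 515 CPM in the higher ranges. Ndufa4l2 had 60.4, 339 and 931 CPM and Kcnj8 141, 373 and 597. In the contractile group, Acta2 had 265, 718 and 1581 CPM, Myh11 2.59, 14.2 and 210, and Des, the intermediate filament of muscle, 1.72, 14.2 and 122. Gja4, a connexin of arterioles, had no UMI in the 68 cells of the lowest range, which allows a level of up to 2.59 CPM, and 24.8 and 146 CPM above. Col4a1 had 689, 2377 and 4124 CPM. Ebf1 was already high at 831 CPM and then 1576 and 1580, and Heyl had 126, 209 and 207.

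Other genes had the opposite order. Cxcl12 had 1241, 526 and 106 CPM, Lepr 126, 88.6 and 24.3, and Ptx3 185, 184 and 5.86. Mmp13 had 1409, 432 and 88.7 CPM, Ogn, osteoglycin, 1120, 409 and 169, and Igf1 1731, 1607 and 541. The perivascular stroma list as a whole was mixed, with 3 of 11 genes higher and 4 lower (median 0.56). Cementoblast precursor markers were lower in 8 of 15 genes and higher in none (median -1.24). The matrix fibroblast list had 6 of 14 lower and 1 higher (-0.84), and the mineral list 5 of 7 lower and 1 higher (-1.80). Ccdc80, with 279, 359 and 281 CPM, and S1pr3, with 185, 174 and 165, were nearly level. Mgp was high in all ranges, at 4398, 9163 and 10070 CPM.

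**Figure D4:**
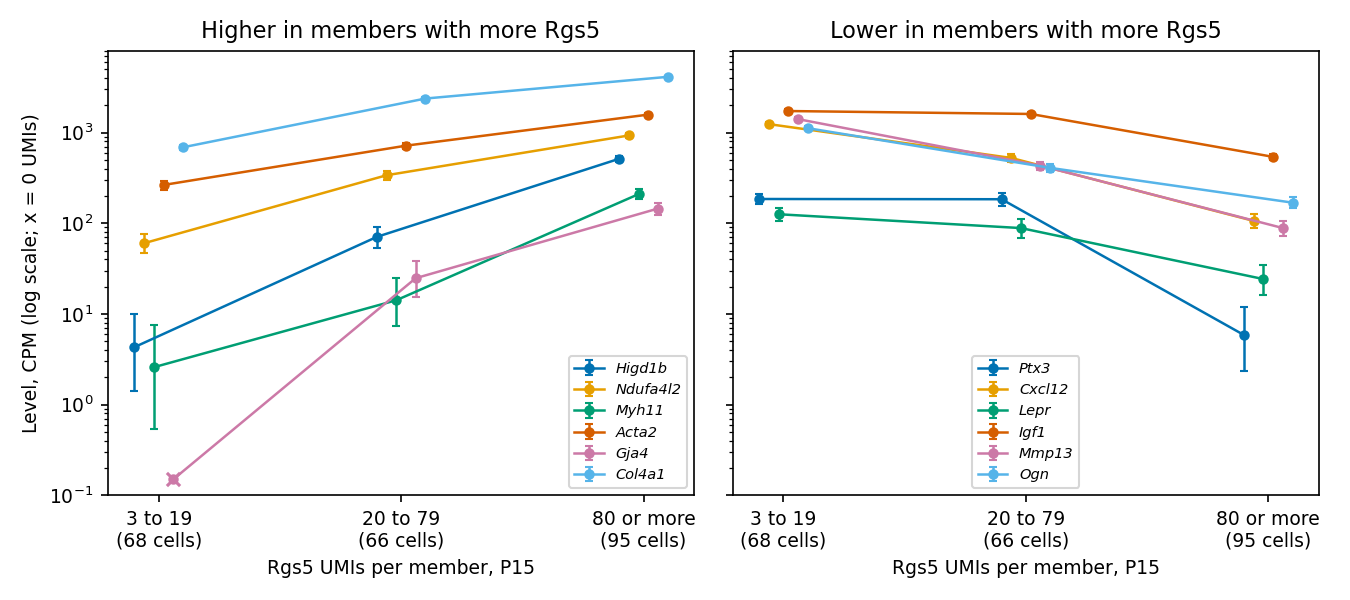
Levels in CPM (log scale) of 12 genes in P15 members by Rgs5 UMIs per cell, with exact 95% Poisson intervals and a cross for 0 UMIs. Left, genes whose level is higher where Rgs5 is higher, among them Higd1b from 4.31 to 515 CPM. Right, genes with the opposite order, among them Cxcl12 from 1241 to 106 CPM.

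Higd1b and Ptx3 were seldom found in the same cell. These and the other pairs were singled out after their values were seen. At P15 79 of 229 members (34.5%) had a Higd1b UMI, 51 (22.3%) a Ptx3 UMI, and 1 had both. In immune cells of the same library the shares were 0.280% and 2.10%. In members with 3 to 19, 20 to 79 and 80 or more Rgs5 UMIs, Higd1b was present in 2, 13 and 64 cells and Ptx3 in 26, 20 and 5. Higd1b and Cxcl12 were present together in 28 cells, that is in 35.4% of the 79 with Higd1b and 20% of the 140 with Cxcl12. Of the 42 members with Myh11, 20 also had Higd1b, 32 had Acta2 and 6 had Ptx3.

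**Figure D5:**
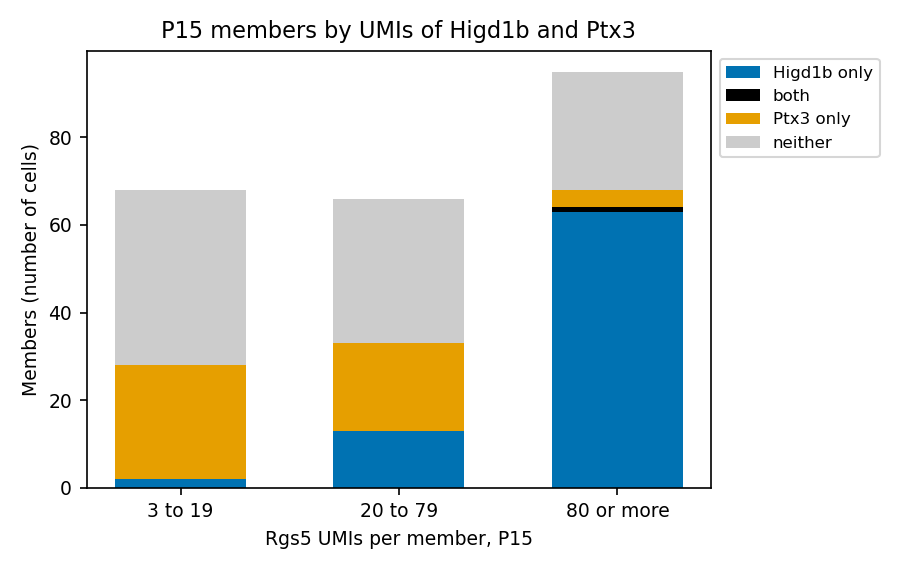
Number of P15 members with a UMI of Higd1b only, Ptx3 only, both or neither, by Rgs5 UMIs per cell. Higd1b is present in 64 of 95 members with 80 or more Rgs5 UMIs and in 2 of 68 with 3 to 19, Ptx3 in 5 and 26, and 1 cell holds both.

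The route into the class split the members along similar lines. The 41 P15 members without a Kcnj8 UMI had 1757 CPM of Rgs5, 49.0 of Higd1b, 872 of Col4a1 and 2720 of Mgp, and 1647 of Cxcl12 and 300 of Ptx3. The 188 with Kcnj8 had 7379, 255, 2814 and 9072 CPM of the first 4 genes and 367 and 71.4 of the last 2. Acta2 did not follow, with 1208 CPM without and 791 with Kcnj8. Members without Kcnj8 were the deeper cells, with a median of 14556 UMIs against 10680.

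At P25, 6 members had 20 or more Rgs5 UMIs. The cell with the most had 177 Rgs5 UMIs of 69020 in all, with 16 of Notch3, 33 of Ebf1, 21 of Abcc9, 22 of Pdgfrb, 20 of Col4a1 and the 4 Higd1b UMIs, but also 199 of Wif1 and 824 of Col1a1. The second had 128 Rgs5 UMIs of 11445, with 18 of Ebf1, 9 of Ndufa4l2, 21 of Pdgfrb and 19 of Col4a1. The other 4 had 41, 34, 27 and 20 Rgs5 UMIs, 16 to 36 of Ebf1 and 0 to 5 of Kcnj8. The 8 members at 8W had 12, 12 and 6 times 3 Rgs5 UMIs, 1 to 3 of Notch3 and 1 to 7 of Ebf1. A Kcnj8 UMI was present in 2 of them, and no cell had more than 1 UMI of Ndufa4l2. All 8 had Cxcl12, with 4 to 14 UMIs, and Wif1, with 3 to 183. One 8W member had 549 Bglap and 726 Bglap2 UMIs of 22246, and another had 89 of the 99 Mgp UMIs.

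To set like beside like, the members with 3 to 19 Rgs5 UMIs were compared between times. Of 3488 genes, 156 (4.47%) were at least 2-fold higher at P25 than at P15 and 188 (5.39%) lower. Between 8W and P15, 436 of 3875 (11.3%) were higher in this range and 379 (9.78%) lower. Over all members, of which only those at P15 and P25 include cells with 20 or more Rgs5 UMIs, 460 of 3968 genes (11.6%) were higher at 8W than at P15 and 503 (12.7%) lower. Among those lower at 8W, Col4a1 had a log2 ratio of -5.70 in members and -0.58 in other cells, and its 36.8 CPM at 8W stood against 2418 in all P15 members and 689 in those with 3 to 19 Rgs5 UMIs. Sparcl1, a matrix protein of the vessel wall, had 773, 89.7 and 18.4 CPM at P15, P25 and 8W, while the other cells had 112, 154 and 403 and P15 members with 3 to 19 Rgs5 UMIs had 195. Epas1, the hypoxia-inducible factor HIF-2α, had 265 and 76.9 CPM and then no UMI, which makes it at least 9.62-fold lower at 8W than in all P15 members and at least 2.19-fold lower than in P15 members with 3 to 19 Rgs5 UMIs, at 60.4 CPM. Ccl2, Plac8 and Hist1h2ap, a histone gene whose near-identical copies make its level uncertain, also had no UMI at 8W. They were at least 10.6-, 10.4- and 13.3-fold lower than in all P15 members, and at least 3.07-, 10.0- and 23.3-fold lower than in those with 3 to 19 Rgs5 UMIs. In the other kept cells the log2 ratio of 8W to P15 was 0.19 for Ccl2, -0.89 for Plac8, -0.62 for Epas1 and -2.79 for Hist1h2ap, which was thus lower there too. Phlda1 and Ndufa4l2 were down to 1 UMI each at 8W, that is 9.19 CPM. All P15 members had 473 and 459 CPM of these 2 genes, and those with 3 to 19 Rgs5 UMIs 152 and 60.4. In the other cells their log2 ratios were 0.56 and 0.17. Mmp3 and Saa3 were at 249 and 233 CPM at P15, with 95% of the UMIs of each in 1 cell, and had log2 ratios of -1.06 and -1.91 in the other cells.

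Several of the genes that were higher at 8W had most of their UMIs in 1 cell. Bglap2, Bglap and Bglap3 were 1st, 3rd and 9th, with 95%, 91% and 100% of their 8W UMIs in 1 cell, and Grem1 had 96%. Angpt4 had a log2 ratio of 3.68 in members and 1.57 in other cells, and 37% of its 46 UMIs were in 1 cell. Dusp2, a phosphatase, had 3.75 CPM at P15 and 294 at 8W, where 56% of its UMIs were in 1 cell, a log2 ratio of 4.47 against 1.33 in other cells. Krt18, Mia, Apod and Igfbp6 had log2 ratios of 3.95, 3.66, 3.53 and 3.32. Their largest share of UMIs in 1 cell was 34%, 41%, 46% and 29%. For Krt18 and Mia the other cells had log2 ratios of 1.31 and 1.99. For Apod, a lipid carrier, and Igfbp6, which binds insulin-like growth factors, the other cells had 2.54 and 3.08.

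Markers of other cell types were counted for the whole of each list. Of 10 endothelial genes outside the rule, 1 was at 0 in P15 members, 5 at P25 and all 10 at 8W, and their summed level was 118 CPM at P15 against 64.3 in other cells, 19.2 against 13.3 at P25 and 0 against 22.8 at 8W. The most abundant at P15 was Esam, an adhesion molecule also found in pericytes, at 63.1 CPM. Of the same list, Cldn5, Vwf and Kdr were lower in P15 members, at 0, 0.937 and 0.937 CPM against 3.68, 2.31 and 6.51 in other cells. So were Egfl7 and Tie1, at 6.87 and 1.25 CPM against 18.4 and 2.47. Flt1, Emcn and Tek were higher, at 18.4, 18.1 and 3.12 CPM against 10.1, 7.02 and 1.99. In P15 cells gated as endothelial (142 cells with Pecam1 and Cdh5), Rgs5 was at 11.8 CPM and Col4a1 at 3957. The 8 endothelial cells at P25 had 360 CPM of Rgs5.

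The 9 immune genes outside the rule summed to 206, 33.3 and 46.0 CPM in members and 7787, 683 and 230 in other cells, with S100a9 the most abundant at P15 and Lyz2 later. None was at 0 at P15, 4 were at P25 and 7 at 8W. The 7 epithelial genes summed to 496, 132 and 46.0 CPM against 3161, 5244 and 1133, led by Krt14, with 0, 1 and 4 at 0. Schwann cell genes summed to 224, 228 and 156 CPM against 136, 129 and 155, with Pmp22 the most abundant in each, and Sox10, the defining gene of the lineage, was at 0 in every library. Erythroid genes summed to 3132 CPM against 2797 at P15, with 67% of the Hbb-bs UMIs in 1 cell, and to 57.7 against 2264 at P25, where 4 of 4 were lower, and 18.4 against 48.7 at 8W. Of 8 odontoblast and pulp genes, 1 was higher and 1 lower at P15 and at P25, and 3 of 3 were lower at 8W, and Dspp was at 0 at P15 and 8W. Cycling genes were not higher in any library, and at P25 96% of the Top2a UMIs were in 1 cell. Genes that respond to dissociation summed to 14649, 17802 and 28838 CPM in members against 11631, 12440 and 19566 in other cells, with none of 9, 1 of 10 and none of 9 higher (medians 0.45, 0.47 and 0.58) and 1, Atf3, lower at 8W. The part of free RNA and of cell pairs in these levels was not tested.

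The reporter for which the cells were sorted was lower in members. mCherry had 76.5, 228 and 312 CPM in members and 320, 359 and 541 in other kept cells, and Pthlh had 26.2, 114 and 55.1 CPM against 152, 190 and 228. After thinning to 3000 UMIs, 10.7% of P15 members had an mCherry UMI (6.99 to 15.5), near the 9.92% of immune cells in the same sorted library. At P25 it was 45.7% of 35 members against 6.12% of 196 immune cells, and at 8W 50% of 8 against 0 of 15, which allows a share of up to 20%. Without thinning, 31.9%, 91.4% and 87.5% of members and 26.9%, 18.8% and 5.56% of immune cells had an mCherry UMI. The immune cells had passed the same sort, and the source of their mCherry UMIs was not tested. Pth1r, the receptor of PTHrP, had 61.2, 55.1 and 55.1 CPM against 54.6, 41.7 and 47.4.

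Members were set beside 2 other mesenchymal classes, each gated with the 4 excluded genes at 0 and without members. Periapical cells (a UMI of both Hand2 and Nts, 284 at P15) had 36.9 CPM of Kcnj8, 87.9 of Abcc9, 80.9 of Pdgfrb and 296 of Mgp at P15, against 373, 423, 630 and 7775 in members. Cells with both Mmp3 and Dio2 (61 at P15) were nearer to members in Pdgfrb, at 413 CPM, and in Col4a1, at 946. They had 14.7 CPM of Kcnj8, 128 of Mgp and no UMI of Higd1b. These classes were gated on the same cells, and the differences are a description.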

How the data were processed

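Cells from 3 libraries (P15, P25 and 8W, n = 1 each) were analysed, and the P6 library of the study was not analysed here. The authors made the deposited UMI counts per gene and cell with Cell Ranger against mm10. The file headers give version 6.1.2 for P15 and 8W and 6.0.1 for P25, and the submitters' processing notes 6.1.2 for all. The matrices held 22056, 32293 and 22056 genes, and the 21446 shared identifiers were used. Cells with fewer than 500 genes or over 20% mitochondrial UMIs were dropped. Counts were summed over the cells of a class and scaled to CPM. Log2 ratios had 10 CPM added, and genes under 50 CPM in both classes of a library were left out. With 1 library per time point and members chosen from these counts, no test was made. Exact Clopper-Pearson and Poisson intervals cover counting error only. Doublets were kept. Scrublet (scanpy 1.11.5) called 405 cells at P15, 0 at P25 and 6 at 8W. The calls at P25 and 8W were too few to be used, so the 6% of cells with the highest scores were left out as an alternative, among them 21, 5 and 0 members. Gene positions are of GENCODE and promoters of RefSeq, both GRCm38.

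Named genes were all members of the lists (24 in all), the 15 genes with the highest mean log2 ratio among those at least 2-fold higher and at 50 CPM or more in members in all 3 libraries, the 10 lowest likewise at 50 CPM or more in other cells, and the 10 most different either way between 8W and P15 members. The 9 genes of the rule, mitochondrial, ribosomal protein, haemoglobin, predicted and sex-linked marker genes were not ranked. The list of the markers that gave the class its name had 2 genes outside the rule, Mgp and Ptx3, of which 2 of 2, 2 of 2 and 1 of 1 measured were higher. The rule, the gene lists and the members were chosen with earlier results of these data known. Of 272 listed genes 271 were measured. The values of 1 listed gene are not reported here. Python 3.11.15, numpy 2.4.6, scipy 1.17.1, pandas 2.3.3, scikit-learn 1.9.0, R 4.3.3 and edgeR 4.0.16 (trimmed mean of M-values, TMM, factors only) were used, and the calculation of ratios was tested on simulated data.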

Additional observations from a re-analysis of the deposited data

Results flagged for a closer look

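In 6 of the genes of the lists and of the leading genes with at least 50 CPM in either class at both times, members stood above the other kept cells at one time and below them at another, by at least 2-fold each way, and the difference was not tested. Ccl2 had a log2 ratio of 2.29 at P15 and -2.81 at 8W, where members had no UMI and the level was at least 2.19-fold lower. Mfap5, a microfibril protein, had 1.22 at P15 and -2.88 at 8W, the latter from 1 UMI. Sparcl1 had 2.68 at P15 and -3.86 at 8W, and Phlda1 had 2.76 and -2.45, the 8W values from 2 UMIs and 1 UMI. Pcp4, a calmodulin-binding peptide, went the other way, with -1.49 at P15 and 1.17 at 8W. Igfbp5, an insulin-like growth factor binding protein, had 1.74 at P25 and -1.15 at 8W.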

How the results depend on the processing

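No paired analysis was possible because each time point was 1 library. The share of members (2.01%, 0.420% and 0.174%) was 0.769% at P25 and 0.370% at 8W with at least 2 Rgs5 UMIs, and 1.75%, 0.216% and 0.0436% with at least 5. It was 1.75%, 0.240% and 0.0653% with at least 2 Notch3 UMIs, 1.65%, 0.168% and 0.0436% with a Kcnj8 UMI required, and 1.45%, 0.0370% and 0.0238% after thinning to 3000 UMIs. P15 was the highest and 8W the lowest under each of these. The P15 neighbour share was 68.4% with 10 and 64.6% with 50 neighbours. The 20 genes higher in all 3 libraries became 31 with at least 5 Rgs5 UMIs (11 shared), 37 with Kcnj8 (13 shared), 13 with TMM factors and 31 with a minimum of 20 CPM or none, and the 28 lower genes became 48 and 69 with the last 2 settings. Leaving out 1 library gave 28 to 69 higher genes (60 without P15, 28 without P25, 69 without 8W) and 35 to 52 lower ones. Over the 2785 genes measured in all 3 libraries, TMM moved the median log2 ratio to -0.029, -0.118 and -0.275 from 0.036, 0.005 and -0.037. Between 8W and P15, the 460 higher and 503 lower genes became 1006 and 957 with at least 5 Rgs5 UMIs, 1086 and 761 with Kcnj8, 729 and 1058 at 20 CPM and 1029 and 967 after thinning. The cause was not tested. Alternatives chosen after seeing the data took members with 3 to 19 Rgs5 UMIs alone, or those with at least 20 at P15 alone. The latter gave 325 higher and 189 lower genes in that 1 library, and Mmp13 turned to a log2 ratio of -0.13. With 8 members, the depth at 8W does not show levels under 27.6 CPM.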
